A study of Mus musculus with 18 samples.

Results

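Gene expression in the tissue around a photothrombotic infarct was compared with expression on the contralateral side of the brain in wild-type mice. The comparison used 3 peri-infarct and 3 contralateral wild-type libraries, 6 of the 18 libraries of the series, chosen by their labels. The mice were adult male C57Bl6 animals of 8 to 10 weeks. They received 50 mg/kg of Rose Bengal, a dye that closes vessels when light activates it, and 125 mW of 525 nm laser light, with the cortical lesion kept to a circle 3 mm across. Tissue was taken 7 days after injury, and dissection followed a TTC stain, in which living tissue turns red. The remaining libraries came from the infarct core and from mice lacking Trem2. The 6 Trem2-knockout peri-infarct and contralateral libraries entered the fit, where they shared in the gene filter, the scaling and the estimated spread. They are set beside the wild type at the end. Both wild-type groups came from lesioned brain, and no sham-operated tissue was analysed here. The labels number the replicates but do not say whether a number is a separate animal, so each p-value here reflects the spread among these libraries, which may be technical.

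Around an infarct, microglia retract their processes, divide and take up dying cells, while monocytes enter from the blood and become macrophages. Both kinds of phagocyte then have to digest myelin and membranes that are rich in cholesterol, through lysosomes, lipid droplets and efflux to lipoproteins. Astrocytes enlarge, switch on intermediate filaments and form a border around the lesion, and surviving neurons next to it change their activity and their synapses.

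The 6 libraries were alike in size, with totals of 17101967 to 17691795 counts and 16720 to 16946 genes detected. Of 18922 genes 15075 were tested, and a gene was called at an adjusted p under 0.05 (edgeR's quasi-likelihood test, Benjamini-Hochberg over all tested genes). Values given as a log2 fold change are for peri-infarct over contralateral tissue, ± SE with 3 libraries per group. CPM are counts scaled to a common library total after TMM normalization, a scaling that assumes most genes unchanged. The tissue held several cell types at once, so a higher share of a cell type and more RNA of a gene per cell cannot be told apart in any of the values below.

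The border response was large and mostly upward. Transcripts of 2217 genes, 14.7% of those tested, rose in peri-infarct tissue, and those of 620 genes, or 4.11%, fell. Rises were also the larger changes. The median log2 fold change was 0.87 among rises and -0.36 among falls, and 0.0046 over all genes tested. A log2 fold change of 1 or more was reached by 979 rises, and one of -1 or less by 14 falls. The 3 peri-infarct libraries lay above all 3 contralateral libraries for 2194 of the 2217 rises and below them for 604 of the 620 falls. Over all 15075 genes tested, 3254 (21.6%) had the upward order and 1905 (12.6%) the downward one. Calls were made from these same values, so the order among called genes is no separate evidence. By TPM, which allows for transcript length, the genes that rose made up 21.0%, 17.2% and 19.7% of the peri-infarct transcript pool, against 11.7%, 11% and 11.5% of the contralateral pool. The genes that fell made up 5.6%, 5.95% and 5.61% of the peri-infarct pool and 7.62%, 7.48% and 7.93% of the contralateral pool. The number of falls depended on the settings: with replicate number as a block it was 1107, against 2311 rises. Rises were 78.2% of calls with TMM and edgeR, 68.2% with RLE size factors, 62.7% with DESeq2 and 54.3% on log2(TPM + 1). Leaving out contralateral replicate 3 left 383 falls.

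**Figure D1:**
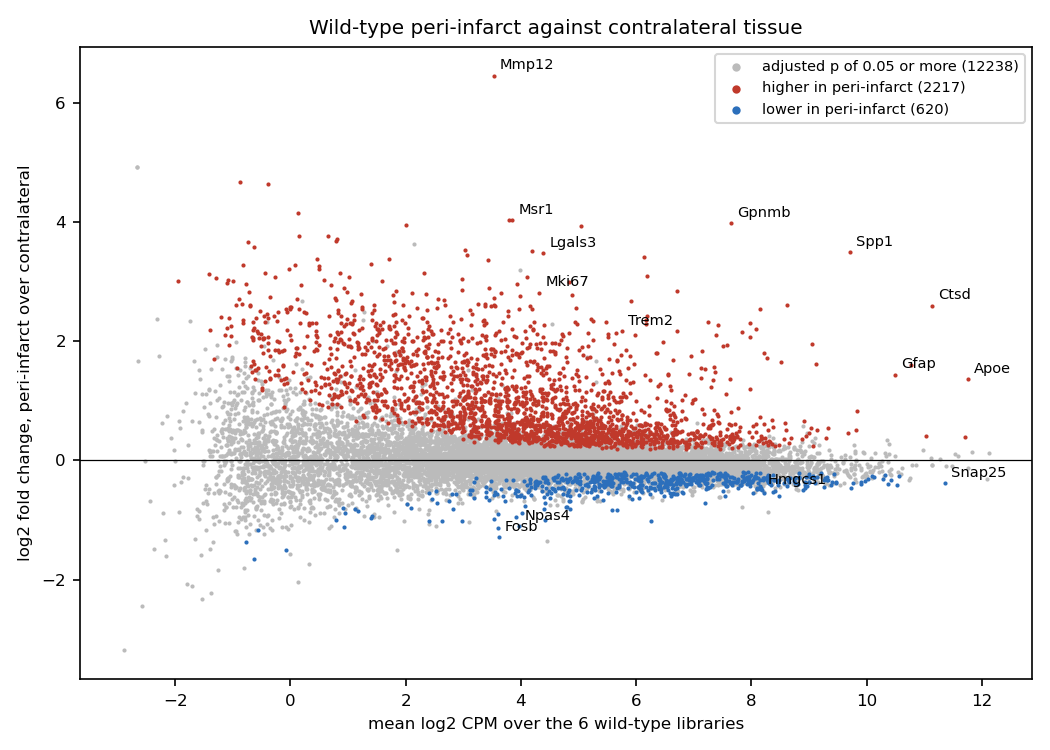
Each point is a gene, with its mean log2 CPM over the 6 wild-type libraries on the x axis and its log2 fold change, peri-infarct over contralateral, on the y axis. The 2217 rises (red) reach 6.46 for Mmp12, while the 620 falls (blue) lie close below the line at 0 and the 12238 genes not called are grey.

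A few abundant transcripts gained most in TPM. Apoe, the main apolipoprotein of the brain, averaged 11530.4 ± 1936 TPM in peri-infarct and 4775 ± 740.0 TPM in contralateral tissue (SD, n = 3 each). Ctsd, the lysosomal aspartic protease cathepsin D, averaged 7033 ± 1497 TPM in peri-infarct and 1231 ± 278 TPM in contralateral tissue. Spp1, the secreted phosphoprotein osteopontin, averaged 5311 ± 2432 TPM in peri-infarct and 497 ± 107 TPM in contralateral tissue. With Ctsb, another lysosomal protease, and Tmsb4x, an actin-binding peptide outside the lists and named after its values were seen, these genes held 28.0% of all TPM gained by genes that rose. The largest loss was that of Snap25, a protein of synaptic vesicle fusion, at 2556 ± 123 TPM in peri-infarct and 3528 ± 423 TPM in contralateral tissue.

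The genes are described below by 46 lists of cell type markers and processes, with 810 tested members. For each list the count of members that rose or fell is to be read against 14.7% and 4.11% over all genes tested.

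**Figure D2:**
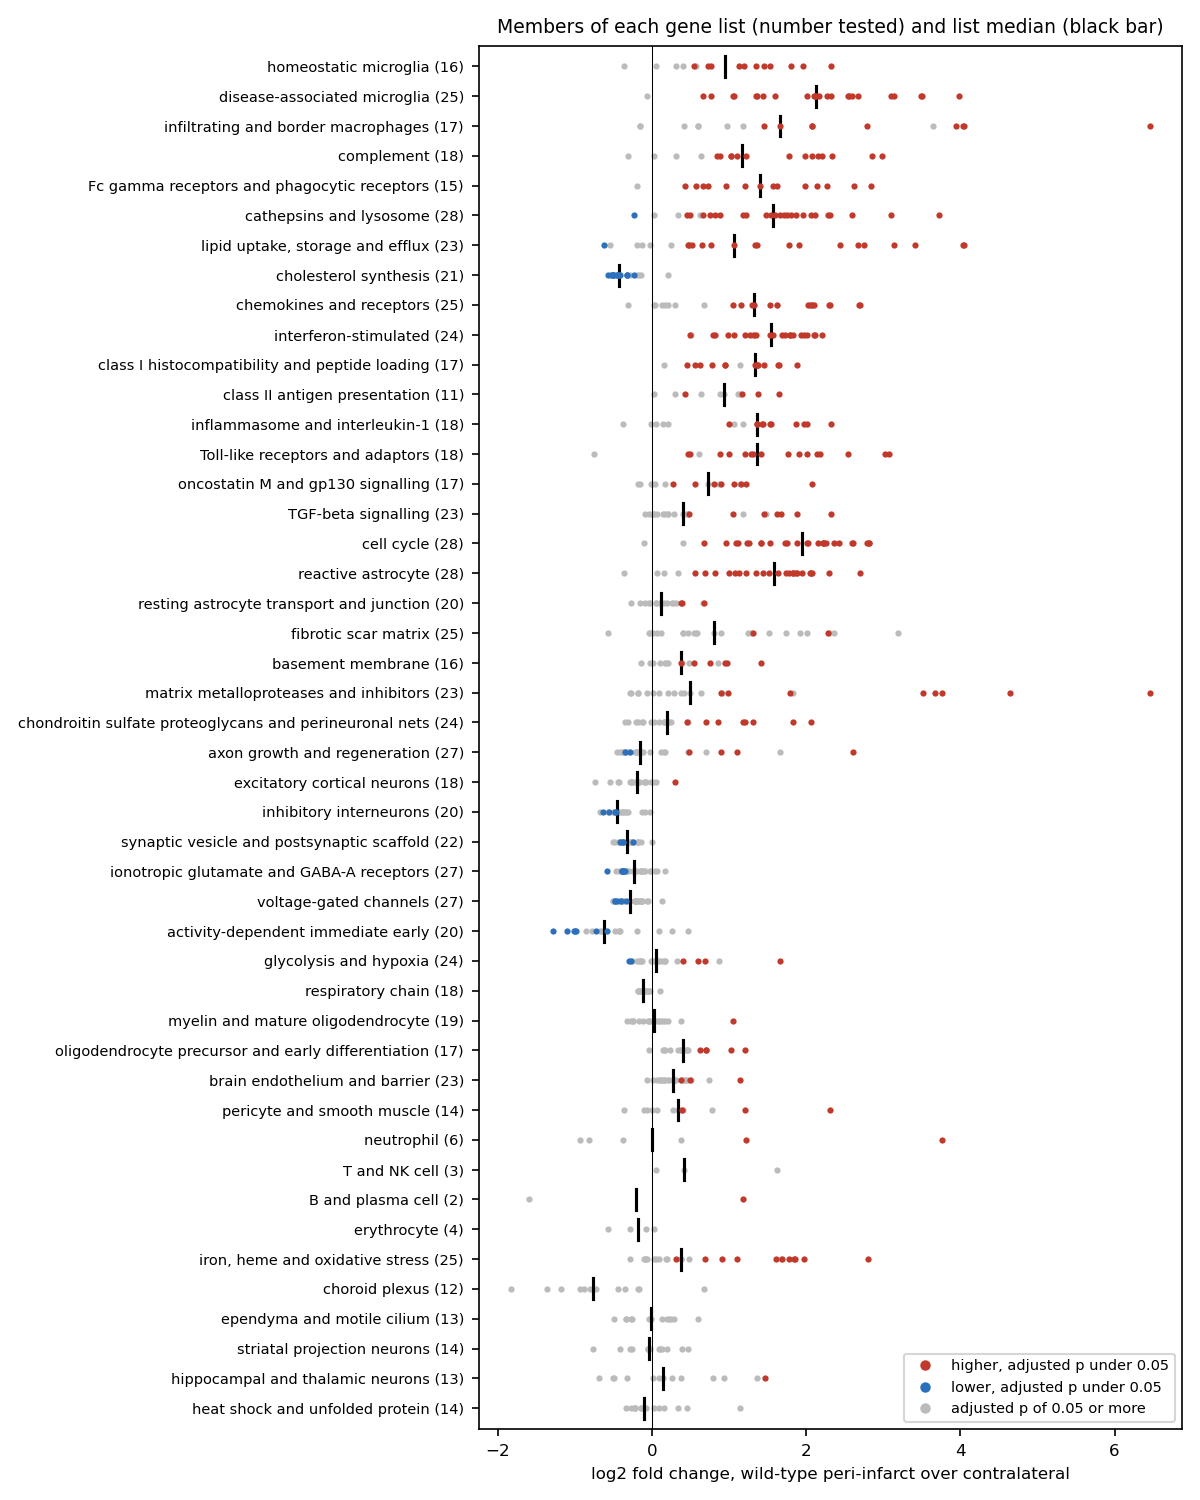
Each row is a gene list with the number of tested members in brackets, and each point is a member's log2 fold change, peri-infarct over contralateral. Members that rose are red, those that fell are blue, those not called are grey, and the black bar is the list's median, which is highest for disease-associated microglia at 2.13.

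Trem2, the lipid-sensing receptor of microglia and macrophages that is deleted in the series' knockout mice, was measured at 129, 91.9 and 127 CPM in peri-infarct tissue, against 28.2, 21.0 and 27.9 CPM in contralateral tissue. The groups lay far apart (log2 fold change 2.17 ± 0.18, adjusted p = 1.1e-05). In the knockout libraries Trem2 was at 2.44, 3.15 and 3.83 CPM in peri-infarct and 0.701, 0.930 and 0.349 CPM in contralateral tissue, so the genotype labels held in all 12 libraries. Its signalling partner Tyrobp was at 159.7, 106 and 132 CPM in peri-infarct tissue, against 32.2, 25.1 and 35.4 CPM in contralateral tissue (log2 fold change 2.10 ± 0.17, adjusted p = 1.1e-05).

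Of 25 genes of the disease-associated microglial state, 24 rose and none fell, with a median log2 fold change of 2.13. The member not called was Ank (-0.07 ± 0.08, adjusted p = 0.58), a protein of pyrophosphate export. Spp1 was measured at 4294, 1697 and 2862 CPM in peri-infarct tissue, against 290.3, 196 and 296 CPM in contralateral tissue (log2 fold change 3.50 ± 0.53, adjusted p = 0.0012). The lowest peri-infarct library still exceeded the highest contralateral one several times over, but replicate 1 and replicate 2 differed widely among themselves. Gpnmb, a glycoprotein of phagocytes filled with lipid, was at 1434, 532 and 635 CPM in peri-infarct tissue, against 68.2, 28.3 and 67.9 CPM in contralateral tissue (log2 fold change 3.98 ± 0.62, adjusted p = 0.0015), with replicate 1 again highest. Cd68, a membrane protein of phagocyte lysosomes, was at 300.0, 184 and 178 CPM in peri-infarct tissue, against 25.9, 18.7 and 32.3 CPM in contralateral tissue (log2 fold change 3.10 ± 0.30, adjusted p = 4.8e-05). The sensing and adhesion receptors Clec7a (2.55 ± 0.29), Itgax (2.13 ± 0.29) and Axl (0.67 ± 0.12, log2 fold changes) rose too, Axl at 0.43 without peri-infarct replicate 3. So did the growth factors Igf1, at a log2 fold change of 2.32 ± 0.26, and Csf1, the ligand that sustains microglia, at 1.07 ± 0.10. Lgals3, which encodes the sugar-binding protein galectin-3, rose at 3.48 ± 0.60, and Cst7, a cathepsin inhibitor, at 2.27 ± 0.27. The list's score, the mean of its members' centred log2 CPM, was 1.29, 0.70 and 1.1 in peri-infarct libraries, against -0.89, -1.35 and -0.85 in contralateral ones.

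Markers of resting microglia rose as well, by less. Of 16 genes 11 rose and none fell, with a median log2 fold change of 0.95. P2ry12, the nucleotide receptor that guides microglial processes, was at 62.8, 70.1 and 88.4 CPM in peri-infarct tissue, against 44.2, 45.1 and 43.8 CPM in contralateral tissue (log2 fold change 0.73 ± 0.13, adjusted p = 0.0017). All 3 peri-infarct libraries were above the contralateral ones, which were nearly equal. Tmem119 was at 87.0, 87.1 and 97.2 CPM in peri-infarct tissue, against 34.4, 35 and 37.3 CPM in contralateral tissue (log2 fold change 1.35 ± 0.10, adjusted p = 4.6e-06). Cx3cr1, the receptor for the neuronal chemokine fractalkine, was at 255, 221 and 274 CPM in peri-infarct tissue, against 92.3, 79.9 and 86.6 CPM in contralateral tissue (log2 fold change 1.53 ± 0.13, adjusted p = 1.1e-05). Csf1r, the receptor on which microglia depend, rose at a log2 fold change of 1.2 ± 0.13, and Fcrls showed the largest fold of the list at 2.32 ± 0.16. The transcription factor Sall1, which maintains microglial identity, rose at 0.54 ± 0.11 (adjusted p = 0.0037). Mef2c, also a transcription factor of neurons, was at a log2 fold change of -0.37 ± 0.18 (adjusted p = 0.2), and was called lower with the replicate block (adjusted p = 0.0039) and in the fit without peri-infarct replicate 3 (adjusted p = 0.026).

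Macrophages that enter the brain or sit at its borders were represented by 17 tested genes, of which 9 rose and none fell (median log2 fold change 1.66). Summed over the list they reached 305.6 to 1006 CPM in peri-infarct libraries and 51.7 to 93.4 CPM in contralateral ones, and their part in the rises of microglial genes was not tested. Mmp12, a macrophage elastase, had the largest fold of all genes that met the naming rule. It was measured at 299, 59.5 and 39.3 CPM in peri-infarct tissue, against 2.11, 0.778 and 1.58 CPM in contralateral tissue (log2 fold change 6.46 ± 0.89, adjusted p = 0.00072), with a wide spread among the 3 peri-infarct libraries. Msr1, a scavenger receptor for modified lipoproteins, was at 117, 40.4 and 37.4 CPM in peri-infarct tissue, against 3.60, 2.04 and 6.16 CPM in contralateral tissue (log2 fold change 4.04 ± 0.58, adjusted p = 0.00093). Cd36, a receptor for fatty acids and oxidized lipids, was at 144, 35.6 and 31.6 CPM in peri-infarct tissue, against 2.97, 1.5 and 8.39 CPM in contralateral tissue (log2 fold change 4.04 ± 0.77, adjusted p = 0.0049). Replicate 1 was the highest peri-infarct library by far for each of these genes, and no contralateral library reached a peri-infarct one. Cd5l, a secreted macrophage protein, was at 227, 78.2 and 134 CPM in peri-infarct tissue, against 7.55, 4.01 and 17 CPM in contralateral tissue (log2 fold change 3.94 ± 0.68, adjusted p = 0.0028). Ms4a7, carried by border and monocyte-derived macrophages rather than parenchymal microglia, rose at a log2 fold change of 2.79 ± 0.41, and F13a1 at 2.08 ± 0.43. Ccr2, the receptor by which monocytes are recruited, rose at 2.08 ± 0.51 (adjusted p = 0.013), and its adjusted p was over 0.05 without peri-infarct replicate 1 or contralateral replicate 2, with a highest value of 0.061. Arg1, an arginine-degrading enzyme, was at 64.5, 12.9 and 8.41 CPM in peri-infarct tissue and 0.572, 0.120 and 6.16 CPM in contralateral tissue. Its large log2 fold change of 3.64 ± 1.14 did not pass (adjusted p = 0.052), but did without contralateral replicate 3 (adjusted p = 0.022). Mrc1, a mannose receptor of perivascular macrophages, was not called (0.59 ± 0.35, adjusted p = 0.28).

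**Figure D3:**
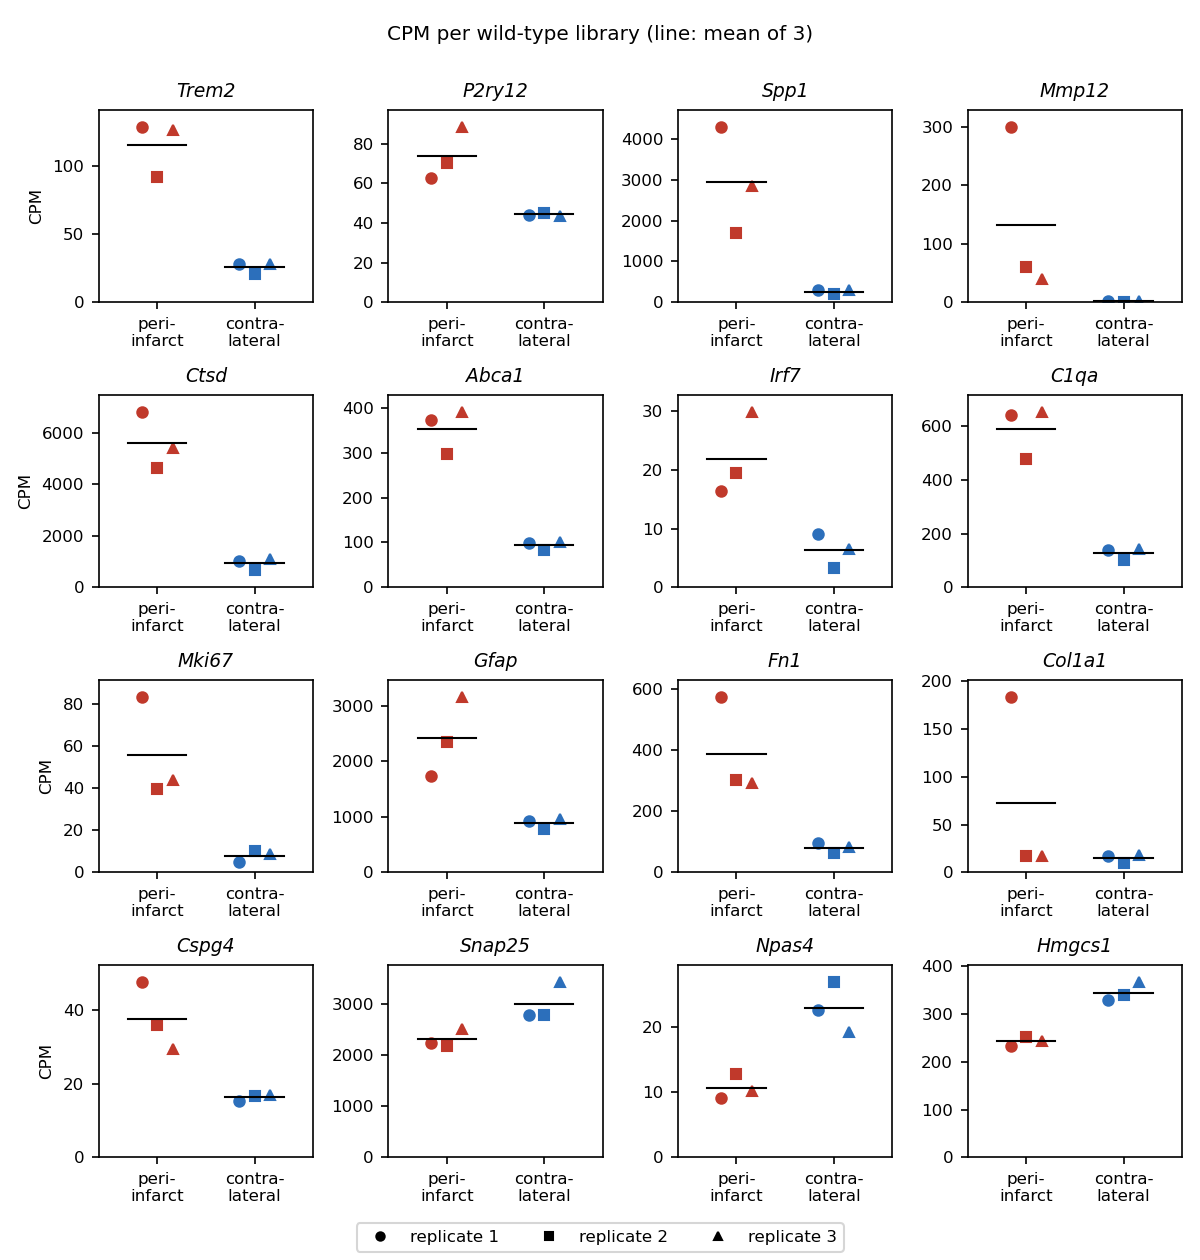
CPM of 16 genes in each wild-type library, with peri-infarct libraries (red) left of contralateral ones (blue), a marker shape for each replicate number and a line at the mean of 3. The groups do not overlap for 15 genes, while Col1a1 is high in peri-infarct replicate 1 only, at 183 CPM, with the other libraries between 9.58 and 17.6 CPM. The 16 genes were selected, and over all genes tested the groups lie apart upward in 21.6% and downward in 12.6%.

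Complement genes, whose products tag cells and synapses for removal, rose as well. Of 18 tested, 14 rose and none fell (median log2 fold change 1.16). C1qa, a chain of the initiating protein C1q, was at 641, 476 and 652 CPM in peri-infarct tissue, against 140.3, 101 and 142 CPM in contralateral tissue (log2 fold change 2.20 ± 0.16, adjusted p = 5.9e-06), and its partner chains C1qb (2.08 ± 0.14) and C1qc (2.16 ± 0.16) rose by log2 fold changes of like size. C3, the central component, rose at 1.77 ± 0.40 (adjusted p = 0.01). Its receptor chains Itgam (1.98 ± 0.14) and Itgb2 (2.34 ± 0.19) rose too. The receptors for the released fragments showed the largest log2 fold changes of the list, C3ar1 at 2.99 ± 0.34 and C5ar1 at 2.85 ± 0.39. C4b rose at 1.03 ± 0.17. C1s1, a serine protease of the C1 complex, was not called (0.63 ± 0.32, adjusted p = 0.21).

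Of 15 tested receptors and bridging molecules for antibodies and dying cells, 14 rose and none fell (median log2 fold change 1.40). The Fc gamma receptors Fcgr1 (1.98 ± 0.12), Fcgr2b (2.27 ± 0.18), Fcgr3 (1.62 ± 0.10) and Fcgr4 (2.61 ± 0.29, log2 fold changes) rose with their signalling chain Fcer1g (2.14 ± 0.17). Itgb5, an integrin chain that helps to engulf apoptotic cells, had the smallest p of the list. It was at 277, 265 and 299.9 CPM in peri-infarct tissue, against 95.4, 90.2 and 97.4 CPM in contralateral tissue (log2 fold change 1.57 ± 0.07, adjusted p = 7.1e-07), with each group within a narrow range. Mertk, a receptor for dying cells, rose at a log2 fold change of 0.72 ± 0.13, and its bridging ligands Gas6 at 0.96 ± 0.14 and Pros1 at 1.40 ± 0.12. Mfge8, the bridge to integrins, was not called (-0.19 ± 0.17, adjusted p = 0.5).

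Lysosomal genes rose broadly. Of 28 genes 24 rose and 1 fell, with a median log2 fold change of 1.57. Ctsd was measured at 6806, 4643 and 5417 CPM in peri-infarct tissue, against 1017, 688 and 1079.9 CPM in contralateral tissue (log2 fold change 2.60 ± 0.22, adjusted p = 1.3e-05), and Ctsb at 3677, 2471 and 3016 CPM in peri-infarct tissue, against 1069.6, 836 and 1127 CPM in contralateral tissue (log2 fold change 1.6 ± 0.15, adjusted p = 1.9e-05). Grn, the precursor of granulins that lysosomes need, was at 646, 482 and 567 CPM in peri-infarct tissue, against 129, 89.9 and 123 CPM in contralateral tissue (log2 fold change 2.31 ± 0.16, adjusted p = 3.9e-06). For these genes the lowest peri-infarct library lay well above the highest contralateral one. The log2 fold changes of 6 further cathepsins that rose ran between 1.48 for Ctsa and 2.11 for Ctsz. Atp6v0d2, a subunit of the proton pump found in macrophages and osteoclasts, rose at 3.73 ± 0.50. Atp6v1b2, the pump subunit of neurons and most other brain cells, was the one that fell, at -0.23 ± 0.07 (adjusted p = 0.026). The membrane proteins Lamp1 (0.66 ± 0.08) and Lamp2 (0.81 ± 0.11) and the cholesterol exporters of the lysosome Npc1 (0.45 ± 0.07) and Npc2 (1.22 ± 0.10) rose by less than the proteases. Mitf, a regulator of lysosomal genes, rose at a log2 fold change of 0.76 ± 0.17 (adjusted p = 0.008).

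Lipid handling genes were mostly higher, with 17 of 23 rising, 1 falling and a median log2 fold change of 1.06. None fell without peri-infarct replicate 3 or contralateral replicate 1. Several members also belong to the microglial and macrophage lists. Plin2, the coat protein of lipid droplets, was at 411, 159.6 and 166 CPM in peri-infarct tissue, against 20.8, 15.7 and 32.8 CPM in contralateral tissue (log2 fold change 3.41 ± 0.43, adjusted p = 0.0004). Lpl, which releases fatty acids from lipoproteins, was at 215, 116 and 135 CPM in peri-infarct tissue, against 23.1, 29.5 and 20.6 CPM in contralateral tissue (log2 fold change 2.67 ± 0.23, adjusted p = 1.5e-05). Ch25h, which makes 25-hydroxycholesterol, rose at a log2 fold change of 3.14 ± 0.38, Soat1, which esterifies cholesterol for storage, at 1.06 ± 0.11, and Lipa, the lysosomal lipase that frees it, at 1.78 ± 0.21. Abca1, the pump that loads cholesterol onto lipoproteins, was at 375, 298 and 391 CPM in peri-infarct tissue, against 99.2, 82.2 and 101 CPM in contralateral tissue (log2 fold change 1.91 ± 0.12, adjusted p = 3.8e-06). The spread within each group was small beside the gap between them. Abcg1, a further efflux pump, rose by less, at 0.48 ± 0.06.

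Genes of cholesterol synthesis moved the other way. Of 21 genes none rose and 15 fell, with a median log2 fold change of -0.42, against 4.11% of all genes falling. Hmgcs1, a synthase early in the pathway, was at 233, 253 and 245 CPM in peri-infarct tissue, against 329, 339 and 367 CPM in contralateral tissue (log2 fold change -0.50 ± 0.09, adjusted p = 0.0022). All 3 peri-infarct libraries were below all contralateral ones, and 18 of the 21 genes had this order, against 12.6% of all genes tested. The later enzymes Fdft1 (-0.53 ± 0.10), Sqle (-0.41 ± 0.09), Cyp51 (-0.43 ± 0.08) and Msmo1 (-0.45 ± 0.07) fell too. Srebf2, the transcription factor that drives this pathway, fell at -0.42 ± 0.10 (adjusted p = 0.01). Dhcr7 (-0.17 ± 0.09, adjusted p = 0.26), the enzyme of a last step, was not called.

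Among chemokines and their receptors 14 of 25 rose and none fell (median log2 fold change 1.32). The macrophage chemokines Ccl3 (2.68 ± 0.38) and Ccl4 (2.69 ± 0.48) rose most. Ccl4 was at 5.59, 3.03 and 3.62 CPM in peri-infarct tissue, against 0.686, 0.599 and 0.587 CPM in contralateral tissue. Ccl2, the ligand of Ccr2 that draws monocytes, rose at a log2 fold change of 2.31 ± 0.59 (adjusted p = 0.016), and its adjusted p was over 0.05 without peri-infarct replicate 1, with a highest value of 0.069. Cxcl10, a ligand that draws T cells, rose at 2.05 ± 0.55 (adjusted p = 0.025), and its adjusted p was over 0.05 without peri-infarct replicate 3 or contralateral replicate 2 or 3, with a highest value of 0.1. Cxcl16 (2.02 ± 0.19) and the receptor Cxcr4 (1.62 ± 0.29, log2 fold changes) rose. Ccl5, a chemokine of T cells, was at 1.63 ± 0.55 (adjusted p = 0.06), and Cx3cl1, the neuronal fractalkine, at -0.32 ± 0.15 (adjusted p = 0.17), neither called. Ccl5 was called without peri-infarct replicate 2 (adjusted p = 0.038). Cx3cl1 was called lower with the replicate block (adjusted p = 0.018) and without peri-infarct replicate 2 or contralateral replicate 1 (adjusted p = 0.047 and 0.039).

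Sensors of the innate immune system rose broadly, with 16 of 18 Toll-like receptor genes higher and none lower (median log2 fold change 1.36). The largest log2 fold changes were those of Cd180 (3.08 ± 0.30), a receptor of the family that lacks the usual signalling domain, and Tlr8 (3.02 ± 0.37). Tlr2, which senses bacterial lipoproteins and damage signals, was at 32.0, 28.8 and 47.9 CPM in peri-infarct tissue, against 8.29, 5.81 and 9.98 CPM in contralateral tissue (log2 fold change 2.17 ± 0.26, adjusted p = 0.00015). Tlr4 (1.77 ± 0.17), Tlr7 (1.91 ± 0.14) and Tlr13 (2.55 ± 0.19) rose, as did the adaptor Myd88 (0.89 ± 0.10). Of 18 inflammasome and interleukin-1 genes 11 rose and none fell (median 1.36). Pycard, the inflammasome adaptor, rose at a log2 fold change of 1.97 ± 0.19, Casp1, its protease, at 1.53 ± 0.25, Gsdmd, the pore protein it cleaves, at 1.44 ± 0.18, and Nlrp3, a sensor, at 1.43 ± 0.27. Il1rn, which encodes the interleukin-1 receptor antagonist, rose at 2.32 ± 0.50 (adjusted p = 0.006). The cytokines themselves were not called, with log2 fold changes of 1.06 ± 0.35 for Il1a and -0.37 ± 0.51 for Il1b (adjusted p = 0.052 and 0.68). Il1a was called with the replicate block (adjusted p = 0.038) and without peri-infarct replicate 2 (adjusted p = 0.047). Tnf had 9, 5 and 9 counts in peri-infarct libraries and 3, 1 and 1 counts in contralateral ones, too few to pass the filter.

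The interferon response was higher throughout the list. Of 24 genes 22 rose and none fell, with a median log2 fold change of 1.55. The count of rises was 16 without peri-infarct replicate 3 or contralateral replicate 2, and 15 without contralateral replicate 3. Bst2, a membrane protein that tethers budding viruses, was at 22.0, 23 and 28.6 CPM in peri-infarct tissue, against 7.43, 3.53 and 6.16 CPM in contralateral tissue (log2 fold change 2.10 ± 0.24, adjusted p = 9e-05). Irf7, the amplifier of interferon expression, was at 16.4, 19.4 and 29.8 CPM in peri-infarct tissue, against 9.03, 3.29 and 6.57 CPM in contralateral tissue (log2 fold change 1.79 ± 0.43, adjusted p = 0.016), and its adjusted p was over 0.05 without peri-infarct replicate 3 or contralateral replicate 2 or 3, with a highest value of 0.063. Oasl2 (1.73 ± 0.36), Oas1a (2.01 ± 0.27) and Oas2 (1.93 ± 0.37), of the family that senses double-stranded RNA, rose, and as near relatives may share reads (values are log2 fold changes). Ifitm3, which blocks viral entry, rose at 1.2 ± 0.16 (adjusted p = 0.00021), and the guanylate-binding protein Gbp2 at 1.34 ± 0.21. The signal transducer Irf9 (0.98 ± 0.16) also rose. The list's score was 0.47, 0.66 and 1.07 in peri-infarct libraries, highest in replicate 3, against -0.31, -1.14 and -0.75 in contralateral ones.

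The promoters of these genes often held the interferon-stimulated response element, the site at which interferon-activated factors bind. The element, searched for as a pair of GAAA blocks 2 bases apart on either strand, lay within RefSeq's promoter window of 250 bases before to 50 bases after the gene start in 12 of 18 members with an entry, or 66.7%. It lay in 3.99% of all 27025 genes with an entry and in 3.82% of the tested ones. The windows below show members that rose, each in the direction of the gene, from RefSeq's table for GRCm38.p6, an older build than the GRCm39 that the processing notes name. They lie at chr4:156200867-156200916 on the minus strand for Isg15, chr19:34640765-34640814 on the plus strand for Ifit1, chr5:120907526-120907565 on the minus strand for Oas1a, chr8:71537573-71537622 on the minus strand for Bst2 and chr3:142620584-142620633 on the plus strand for Gbp2. Capitals mark the element, which shows as TTTC blocks where it lies on the other strand.
Isg15: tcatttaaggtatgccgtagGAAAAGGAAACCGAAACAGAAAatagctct
Ifit1: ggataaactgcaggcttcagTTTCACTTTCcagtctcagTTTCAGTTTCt
Oas1a: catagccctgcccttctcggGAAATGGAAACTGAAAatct
Bst2: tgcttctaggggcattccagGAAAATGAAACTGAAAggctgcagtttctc
Gbp2: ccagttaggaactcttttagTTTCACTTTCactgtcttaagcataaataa
In Isg15 and in the Oas1a and Bst2 windows overlapping copies run into each other, while Gbp2 holds 1 copy. Isg15 rose at a log2 fold change of 1.57 ± 0.41 (adjusted p = 0.02), and its adjusted p was over 0.05 without peri-infarct replicate 3 or contralateral replicate 2 or 3, with a highest value of 0.089. Ifit1 rose at 1.33 ± 0.40 (adjusted p = 0.042), and its adjusted p was over 0.05 without peri-infarct replicate 1 or 2 or 3 or contralateral replicate 2 or 3, with a highest value of 0.15. A match describes the sequence and does not show that a factor was bound.

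Genes of antigen presentation were mostly higher for class I. Of 17 class I and peptide-loading genes 14 rose and none fell (median log2 fold change 1.34, and 0.83 without peri-infarct replicate 3). The immunoproteasome subunit Psmb8 rose at 1.87 ± 0.23, the peptide transporter Tap1 at 1.65 ± 0.19, and B2m, the light chain of class I, was at 306, 256 and 404 CPM in peri-infarct tissue, against 144, 92.7 and 138 CPM in contralateral tissue (log2 fold change 1.37 ± 0.18, adjusted p = 0.00027). The heavy chains H2-K1 (1.45 ± 0.22) and H2-D1 (1.38 ± 0.26) rose too, and as near-identical genes may share reads. Of 11 class II genes 4 rose and none fell (median 0.93). The count was 2 in the fits without peri-infarct replicate 3, contralateral replicate 1 or contralateral replicate 2, and 7 without contralateral replicate 3. H2-DMb1, which helps to load class II, rose at 1.65 ± 0.24 (adjusted p = 0.00045), and the co-stimulator Cd86 at 1.37 ± 0.21. The class II chain H2-Aa (1.12 ± 0.43, adjusted p = 0.099) and the invariant chain Cd74 (0.89 ± 0.41, adjusted p = 0.17) were not called. Both were called with the replicate block (adjusted p = 0.025 for H2-Aa and 0.013 for Cd74) and without contralateral replicate 3 (adjusted p = 0.0022 for H2-Aa and 0.033 for Cd74).

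Nearly all cell cycle genes rose. Of 28 tested 26 rose and none fell, with a median log2 fold change of 1.95. Mki67, a chromosome coat protein of cycling cells, was at 83.0, 39.6 and 43.6 CPM in peri-infarct tissue, against 4.86, 10.1 and 8.68 CPM in contralateral tissue (log2 fold change 2.82 ± 0.34, adjusted p = 0.0002). Cdk1, the kinase of mitotic entry, was at 15.4, 8.03 and 10.4 CPM in peri-infarct tissue, against 1.37, 1.68 and 1.76 CPM in contralateral tissue (log2 fold change 2.81 ± 0.26, adjusted p = 1.7e-05). Peri-infarct replicate 1 was highest for both, and no library of 1 group reached the other. The mitotic cyclins Ccnb1 (2.22 ± 0.35) and Ccnb2 (2.36 ± 0.28), the topoisomerase Top2a (2.60 ± 0.33) and the replication helicase subunits Mcm3 (2.02 ± 0.20) and Mcm6 (1.42 ± 0.28) rose. Pcna, the sliding clamp of DNA polymerase, rose by less, at 0.68 ± 0.12 (adjusted p = 0.0017). Cdkn1a, an inhibitor of the cycle, was not called (0.40 ± 0.22, adjusted p = 0.25). The values do not say which cells divided.

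The promoters of these genes often held the cell cycle homology region TTTGAA, the short element at which the DREAM complex keeps mitotic genes silent in resting cells. It was present on either strand in 11 of 23 members with an entry, or 47.8%, against 20.2% of all genes with an entry and 14.5% of the tested ones. E2F sites, TTTCCCGC or TTTGGCGC, were present in 3 of the 23, or 13%, and in 3.14% of tested genes. The windows come from the same RefSeq table for GRCm38.p6. They lie on the minus strand at chr7:135716470-135716515 for Mki67, chr10:69352958-69353003 for Cdk1, chr4:118437344-118437381 for Cdc20, an activator of mitotic exit, and chr9:70421696-70421741 for Ccnb2. Capitals mark the element.
Mki67: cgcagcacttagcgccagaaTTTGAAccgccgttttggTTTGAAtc
Cdk1: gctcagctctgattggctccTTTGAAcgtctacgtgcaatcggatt
Cdc20: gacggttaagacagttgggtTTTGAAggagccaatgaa
Ccnb2: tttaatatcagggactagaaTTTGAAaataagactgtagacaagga
Mki67 holds a pair of copies in its window, and the other windows show 1 each. Cdc20 rose at a log2 fold change of 1.88 ± 0.27 (adjusted p = 0.00041). Searches of the other lists gave few matches. GAGGAAGT, a site of the myeloid factor PU.1, was found on either strand in 1 of 20 disease-associated microglial members with an entry, or 5%, against 3.69% of all genes with an entry and 3.48% of tested ones. The sterol regulatory element, searched for in 1 exact form only, was found in none of 15 members of cholesterol synthesis. That form was rare, present in 9 of 11946 tested genes with an entry, or 0.0753%. A form so rare would hardly be met in 15 genes, and variant forms were not searched for. The search therefore cannot tell whether these promoters hold the element.

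Reactive astrocyte genes rose in 23 of 28 cases, with none falling and a median log2 fold change of 1.58. Several members, such as C3, Cxcl10, Gbp2 and Psmb8, also belong to the complement, chemokine, interferon and class I lists above. Gfap, the intermediate filament of astrocytes, was at 1731, 2355 and 3161 CPM in peri-infarct tissue, against 921, 778 and 968 CPM in contralateral tissue (log2 fold change 1.44 ± 0.18, adjusted p = 0.00014), and here replicate 1 was the lowest peri-infarct library. Vim, another intermediate filament, was at 406, 292 and 444 CPM in peri-infarct tissue, against 93.5, 74.8 and 129 CPM in contralateral tissue (log2 fold change 1.94 ± 0.19, adjusted p = 3.9e-05). Serpina3n, a secreted protease inhibitor, was at 235, 228 and 357 CPM in peri-infarct tissue, against 68.5, 61.8 and 100.2 CPM in contralateral tissue (log2 fold change 1.83 ± 0.24, adjusted p = 0.00034). Cd44, a hyaluronan receptor, rose at a log2 fold change of 2.06 ± 0.18, and Tgm1, a protein cross-linking enzyme, at 2.69 ± 0.30. Lcn2, an iron-carrier binding protein, was at 15.4, 14.3 and 19.6 CPM in peri-infarct tissue, against 1.09, 3.53 and 9.27 CPM in contralateral tissue (log2 fold change 1.83 ± 0.56, adjusted p = 0.046). Contralateral replicate 3 was the highest of its group, and the adjusted p of Lcn2 was over 0.05 without peri-infarct replicate 1 or 2 or 3 or contralateral replicate 1 or 2, with a highest value of 0.15. Without contralateral replicate 3 its log2 fold change was 2.80. Resting astrocyte genes rose in 3 of 20 cases, near the 14.7% of all genes tested, and none fell. Their median was 0.12, which lay between -0.045 without peri-infarct replicate 3 and 0.22 without peri-infarct replicate 1. With RLE size factors 1 rose, and by DESeq2 1 fell. Aqp4, the water channel of astrocyte endfeet, rose at 0.68 ± 0.14 (adjusted p = 0.005). It was the 1 member called in the fits without peri-infarct replicate 2 or 3 and without contralateral replicate 2 or 3. The glutamate transporter Slc1a3 (0.26 ± 0.14, adjusted p = 0.24) and the gap junction protein Gja1 (0.27 ± 0.12, adjusted p = 0.15) were not called, though Slc1a3 passed without peri-infarct replicate 1 (adjusted p = 0.032).

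Of 17 genes of oncostatin M and gp130 signalling, a pathway that activates astrocytes through STAT3, 8 rose and none fell (median log2 fold change 0.73). The ligand Osm rose at 2.07 ± 0.37, its receptor Osmr was at 16.6, 15.5 and 20.2 CPM in peri-infarct tissue, against 6.57, 8.08 and 7.80 CPM in contralateral tissue (log2 fold change 1.22 ± 0.16, adjusted p = 0.00021), and the transducer Stat3 rose at 0.56 ± 0.07. The count was 5 without peri-infarct replicate 1 or without contralateral replicate 2. Of 23 genes of TGF-beta signalling 7 rose and none fell (median 0.41, and 0.26 without contralateral replicate 1). The ligand Tgfb1 was at 36.6, 29.1 and 32.6 CPM in peri-infarct tissue, against 8.69, 8.38 and 9.51 CPM in contralateral tissue (log2 fold change 1.89 ± 0.17, adjusted p = 1.2e-05), and its receptors Tgfbr1 (1.05 ± 0.14) and Tgfbr2 (1.68 ± 0.15) rose. The signal carrier Smad3 was not called (0.15 ± 0.14, adjusted p = 0.54).

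Fibrotic scar genes, expressed by fibroblasts that spread from vessels and meninges, were uneven between libraries. Of 25 genes 2 rose and none fell, with a median log2 fold change of 0.81 that was 0.016 without peri-infarct replicate 1. Fn1, fibronectin, was at 574, 301 and 292 CPM in peri-infarct tissue, against 94.9, 61.5 and 83.8 CPM in contralateral tissue (log2 fold change 2.28 ± 0.33, adjusted p = 0.00074), and Tnc, tenascin C, at 19.6, 14.7 and 12.1 CPM in peri-infarct tissue, against 6.86, 5.93 and 5.87 CPM in contralateral tissue (log2 fold change 1.31 ± 0.19, adjusted p = 0.00038). Col1a1, the main chain of fibrillar collagen I, was at 183, 16.8 and 17.2 CPM in peri-infarct tissue and 17, 9.58 and 17.6 CPM in contralateral tissue, which overlap, and did not pass (adjusted p = 0.11). Col3a1 behaved alike, at 213, 11.1 and 14.3 CPM in peri-infarct and 8.86, 3.71 and 13.5 CPM in contralateral tissue (adjusted p = 0.072), and passed without peri-infarct replicate 2 (adjusted p = 0.035). The list's score was 1.39 in peri-infarct replicate 1, -0.17 and -0.14 in the other peri-infarct libraries, and -0.16, -0.64 and -0.28 in contralateral ones. Without peri-infarct replicate 2, 7 members rose and 1 fell, and 7 rose without peri-infarct replicate 3 and by DESeq2. With the replicate block 1 fell.

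Basement membrane genes, which encode the sheet around vessels, rose in 6 of 16 cases with none falling (median log2 fold change 0.38, but 0.24 without peri-infarct replicate 1 and 0.21 without contralateral replicate 3). Col4a1, a chain of collagen IV, was at 105, 56.2 and 62.9 CPM in peri-infarct tissue, against 32.9, 38.9 and 42.1 CPM in contralateral tissue (log2 fold change 0.98 ± 0.20, adjusted p = 0.0045, with a log2 fold change of 0.62 without peri-infarct replicate 1), and Hspg2, perlecan, rose at 0.75 ± 0.13. The count was 3 without peri-infarct replicate 1, without contralateral replicate 2 or without contralateral replicate 3. Of 23 matrix proteases and inhibitors 8 rose and none fell (median 0.50). With the replicate block 1 fell. Mmp3, stromelysin, was at 4.90, 0.466 and 0.818 CPM in peri-infarct tissue, against 0.171, 0.0599 and 0.235 CPM in contralateral tissue (log2 fold change 3.67 ± 0.97, adjusted p = 0.02), and its adjusted p was over 0.05 without peri-infarct replicate 1 or contralateral replicate 1 or 2 or 3, with a highest value of 0.093. Without peri-infarct replicate 1 its log2 fold change was 1.97. Adam8, a membrane protease of myeloid cells, was at 120.5, 46.0 and 37.9 CPM in peri-infarct tissue, against 3.83, 4.73 and 9.39 CPM in contralateral tissue (log2 fold change 3.51 ± 0.49, adjusted p = 0.00075). Mmp14, which activates Mmp2 at the cell surface, rose at 0.89 ± 0.17, and Mmp2 at 0.99 ± 0.23. Mmp9, often measured after stroke, was not called (0.38 ± 0.41, adjusted p = 0.59). Timp1, an inhibitor of these proteases, was at 10.3, 4.89 and 8.47 CPM in peri-infarct and 1.26, 0.539 and 4.87 CPM in contralateral tissue (1.82 ± 0.65, adjusted p = 0.078), and passed with the replicate block (adjusted p = 0.018) and without contralateral replicate 3 (adjusted p = 0.0054).

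Chondroitin sulfate proteoglycans and perineuronal nets, matrix that limits axon growth, gave 8 rises and no falls among 24 genes (median log2 fold change 0.20, and 0.089 without peri-infarct replicate 3). Without peri-infarct replicate 2, 1 fell. Cspg4, the NG2 proteoglycan of oligodendrocyte precursors and pericytes, was at 47.7, 35.9 and 29.4 CPM in peri-infarct tissue, against 15.4, 16.8 and 17 CPM in contralateral tissue (log2 fold change 1.2 ± 0.19, adjusted p = 0.00077). Vcan, versican, rose at 0.70 ± 0.10, and the sulfotransferase Chst3 at 0.86 ± 0.18. The neural proteoglycan Ncan (0.19 ± 0.15, adjusted p = 0.45) and the net component Acan (-0.35 ± 0.26, adjusted p = 0.41) were not called.

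**Figure D4:**
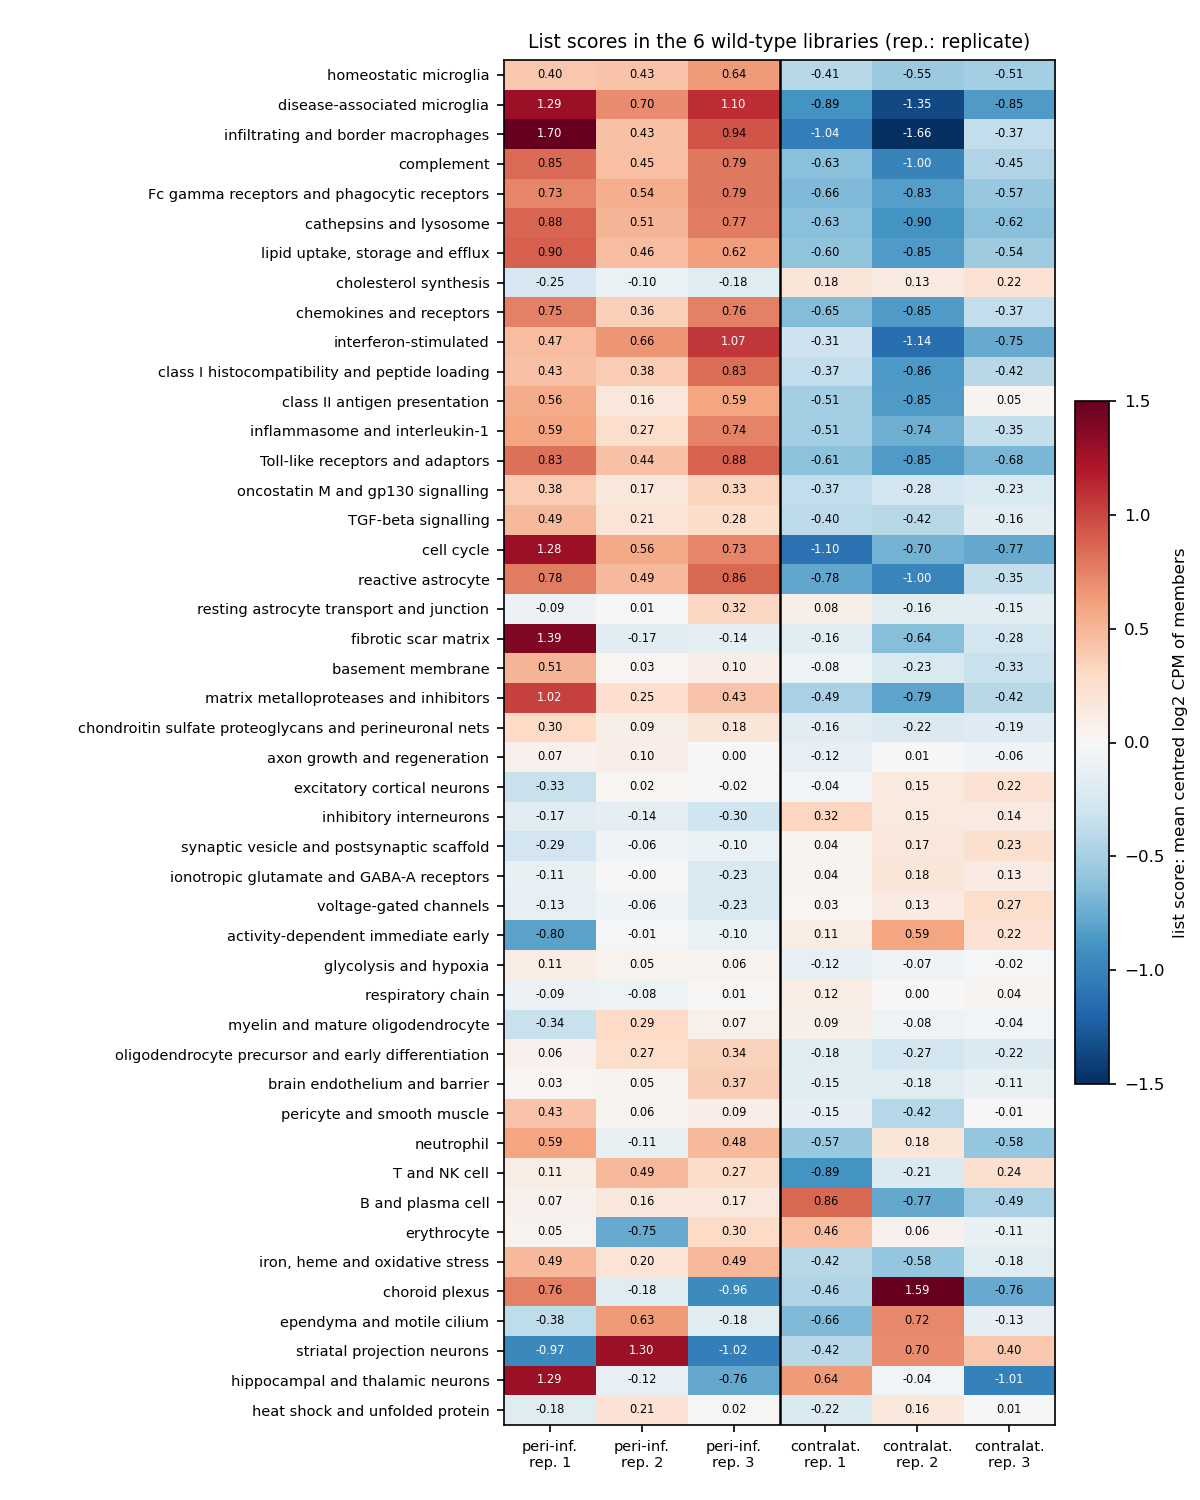
List scores, the mean of members' log2 CPM centred on the 6 wild-type libraries, with peri-infarct libraries left and contralateral libraries right. The disease-associated microglial, complement, lysosomal and interferon lists are above 0 in every peri-infarct library and below 0 in every contralateral one, while scar matrix is high in peri-infarct replicate 1 alone (1.39), choroid plexus in contralateral replicate 2 (1.59) and striatal neurons in peri-infarct replicate 2 (1.3).

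Neuronal genes were lower by small amounts. Of 22 synaptic genes none rose and 4 fell, with a median log2 fold change of -0.32, and all fitted log2 fold changes were below 0. Snap25 was at 2239.9, 2170.0 and 2504 CPM in peri-infarct tissue, against 2775, 2780.4 and 3420.4 CPM in contralateral tissue (log2 fold change -0.38 ± 0.09, adjusted p = 0.014). Syp, synaptophysin, was at 1167, 1181 and 1158 CPM in peri-infarct tissue, against 1411, 1390.1 and 1346 CPM in contralateral tissue (log2 fold change -0.24 ± 0.06, adjusted p = 0.017), with both groups within a narrow range. Sv2a, a vesicle glycoprotein, fell at -0.37 ± 0.09 (adjusted p = 0.014). Syt1, the calcium sensor of release, fell at -0.41 ± 0.11 (adjusted p = 0.026), and its adjusted p was over 0.05 without peri-infarct replicate 1 or contralateral replicate 3, with a highest value of 0.073. The scaffold Dlg4 (-0.14 ± 0.12, adjusted p = 0.46) was not called. The number of falls rested on the settings, and was 14 with the replicate block, 10 by DESeq2, 7 with RLE size factors, 13 without contralateral replicate 1, 7 without peri-infarct replicate 2 and 1 in the fit of the 6 wild-type libraries alone.

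Of 27 ionotropic glutamate and GABA-A receptor subunits none rose and 7 fell (median log2 fold change -0.24). Gabrg3 was at 18.1, 26.3 and 24.1 CPM in peri-infarct tissue, against 32.7, 33.3 and 37.0 CPM in contralateral tissue (log2 fold change -0.59 ± 0.13, adjusted p = 0.0074). Gabrb2, another GABA-A subunit, fell at -0.37 ± 0.09. The main AMPA subunit Gria2 (-0.20 ± 0.15, adjusted p = 0.39) and the obligatory NMDA subunit Grin1 (-0.32 ± 0.11, adjusted p = 0.066) were not called. Grin1 was called lower in 16 of 26 alternatives, among them the replicate block (adjusted p = 0.015). The count was 4 without peri-infarct replicate 1 and 3 without contralateral replicate 3. Of 27 voltage-gated channel genes none rose and 5 fell (median -0.29). Scn2a, a sodium channel of excitatory axons, was at 206, 252 and 244 CPM in peri-infarct tissue, against 288, 326 and 363 CPM in contralateral tissue (log2 fold change -0.47 ± 0.11, adjusted p = 0.0075). The calcium channels Cacna1b (-0.40 ± 0.11), of synaptic terminals, and Cacna1g (-0.45 ± 0.10), which opens at low voltage, fell, and the adjusted p of Cacna1b was over 0.05 without peri-infarct replicate 1 or contralateral replicate 3, with a highest value of 0.067. This count was 12 with the replicate block, 11 by DESeq2, 8 without contralateral replicate 1 and 2 without contralateral replicate 3.

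Among 20 interneuron genes none rose and 4 fell, with a median log2 fold change of -0.45 and all fitted log2 fold changes below 0. Erbb4, a neuregulin receptor of these cells, was at 51.5, 54.9 and 53.7 CPM in peri-infarct tissue, against 80.4, 76.1 and 91.7 CPM in contralateral tissue (log2 fold change -0.63 ± 0.10, adjusted p = 0.00053), and the groups were well apart. Gad1, which makes GABA, fell at -0.46 ± 0.15 (adjusted p = 0.05), and its adjusted p was over 0.05 without peri-infarct replicate 2 or 3 or contralateral replicate 1 or 2 or 3, with a highest value of 0.13. The subtype markers Sst (-0.67 ± 0.22), Pvalb (-0.39 ± 0.20) and Vip (-0.49 ± 0.19) were not called (adjusted p = 0.053, 0.21 and 0.1). Sst was called lower in 10 of 26 alternatives, among them the fit without peri-infarct replicate 2 (adjusted p = 0.0023). Vip was called in 7, among them the replicate block (adjusted p = 0.02) and the fit without peri-infarct replicate 3 (adjusted p = 0.021). The count was 11 with the replicate block, 10 by DESeq2, 7 with RLE size factors, 2 without contralateral replicate 1 and 1 without contralateral replicate 3. Of 18 markers of excitatory cortical neurons 1 rose and none fell (median -0.19). The one was Cux1 (0.31 ± 0.10, adjusted p = 0.047), also expressed outside neurons, whose adjusted p was over 0.05 without peri-infarct replicate 1 or 2 or 3 or contralateral replicate 1 or 2, with a highest value of 0.32, and whose log2 fold change was 0.18 without peri-infarct replicate 3 and 0.19 without contralateral replicate 2. With the replicate block 5 of these markers fell, as did 3 without peri-infarct replicate 3 and 2 by DESeq2. The median was -0.10 without peri-infarct replicate 1 and -0.30 without peri-infarct replicate 2. Slc17a7, the vesicular glutamate transporter, was at -0.22 ± 0.18 (adjusted p = 0.45).

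Activity-dependent immediate early genes showed the largest neuronal falls. Of 20 genes none rose and 7 fell, with a median log2 fold change of -0.62. Fosb, a transcription factor induced by firing, was at 3.98, 10.3 and 10.5 CPM in peri-infarct tissue, against 15.1, 26.4 and 18.7 CPM in contralateral tissue (log2 fold change -1.28 ± 0.33, adjusted p = 0.019), and its adjusted p was over 0.05 without contralateral replicate 2, with a highest value of 0.066. Npas4, induced by calcium entry into neurons, was at 9.05, 12.8 and 10.2 CPM in peri-infarct tissue, against 22.6, 26.9 and 19.2 CPM in contralateral tissue (log2 fold change -1.1 ± 0.19, adjusted p = 0.0014) and kept its call without each of the 6 libraries. Peri-infarct replicate 1 was the lowest library for both. The related transcription factor Egr4 fell at -1.00 ± 0.32 (adjusted p = 0.049), a value over 0.05 without peri-infarct replicate 1 or 3 or contralateral replicate 2 or 3, with a highest value of 0.14. Egr2 fell at -0.98 ± 0.30 (adjusted p = 0.041), a value over 0.05 without contralateral replicate 1 or 2 or 3, with a highest value of 0.12. Nr4a1, an orphan nuclear receptor, fell at -1.01 ± 0.28 (adjusted p = 0.029), a value over 0.05 without contralateral replicate 2 or 3, with a highest value of 0.088. The classical markers Fos (-0.64 ± 0.25, adjusted p = 0.097), Arc (-0.78 ± 0.43, adjusted p = 0.26) and Egr1 (-0.86 ± 0.27, adjusted p = 0.052) were not called. With the replicate block all 3 were called lower (adjusted p = 0.0073 for Fos, 0.0165 for Arc and 0.002 for Egr1). Egr1 was also called without peri-infarct replicate 1 or 3 or contralateral replicate 1, and Fos without peri-infarct replicate 3 (adjusted p = 0.026). Jun, which also marks injured neurons, was at 0.47 ± 0.26 (adjusted p = 0.25), and was called higher with the replicate block (adjusted p = 0.033) and without contralateral replicate 2 (adjusted p = 0.042). The count of falls was 14 with the replicate block, 13 by DESeq2, 2 without contralateral replicate 2 and 4 without contralateral replicate 3. The list's score was -0.80 in peri-infarct replicate 1, -0.01 and -0.10 in the other peri-infarct libraries, and 0.11, 0.59 and 0.22 in contralateral ones.

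The 10 largest falls by the naming rule included further neuronal genes. Adcyap1, which encodes the neuropeptide PACAP, was at 7.95, 6.05 and 10.9 CPM in peri-infarct tissue, against 23.1, 16.2 and 15.8 CPM in contralateral tissue (log2 fold change -1.14 ± 0.35, adjusted p = 0.043), and its adjusted p was over 0.05 without peri-infarct replicate 1 or 2 or contralateral replicate 1 or 2 or 3, with a highest value of 0.12. Grm8, a presynaptic glutamate receptor, was at 8.87, 10.5 and 13.4 CPM in peri-infarct tissue, against 21.8, 17.7 and 23.5 CPM in contralateral tissue (log2 fold change -0.94 ± 0.16, adjusted p = 0.0011). Rbp4, which carries retinol, fell at -1.02 ± 0.25 (adjusted p = 0.014), and its adjusted p was over 0.05 without contralateral replicate 2, with a highest value of 0.05. Dlx2, a transcription factor of interneuron precursors, fell at -0.97 ± 0.29 (adjusted p = 0.034), and its adjusted p was over 0.05 without peri-infarct replicate 1 or 3 or contralateral replicate 2 or 3, with a highest value of 0.13. Vwc2l fell at -1.01 ± 0.30 (adjusted p = 0.032) and lost its call with the replicate block (adjusted p = 0.083), and its adjusted p was over 0.05 without peri-infarct replicate 1 or 2 or contralateral replicate 1, with a highest value of 0.097.

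Axon growth genes did not move together. Of 27 genes 4 rose and 2 fell (median log2 fold change -0.16). Atf3, a transcription factor of injured neurons and of immune cells, was at 24.4, 11.5 and 12.4 CPM in peri-infarct tissue, against 2.97, 1.92 and 2.99 CPM in contralateral tissue (log2 fold change 2.61 ± 0.32, adjusted p = 0.00013), and Plxnb2, a semaphorin receptor, rose at 1.1 ± 0.10. Stmn2, a microtubule regulator of growth cones, fell at -0.29 ± 0.07 (adjusted p = 0.013). Gap43, a growth cone protein, was not called (-0.39 ± 0.18, adjusted p = 0.17). With the replicate block the counts were 6 rises and 6 falls, and 1 fell without peri-infarct replicate 1 or contralateral replicate 2 or 3.

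Energy metabolism changed in single genes. Of 24 glycolysis and hypoxia genes 4 rose and 2 fell (median log2 fold change 0.05). Falls numbered 5 on log2(TPM + 1), 4 by DESeq2 and without peri-infarct replicate 2, 1 without peri-infarct replicate 3, and 0 without peri-infarct replicate 1 or contralateral replicate 2 or 3. Among fits with a library left out the median was as low as 0.00079, without contralateral replicate 3. On log2(TPM + 1) it was below 0, at -0.040. Hk2, an inducible hexokinase, was at 37.2, 25.0 and 33.7 CPM in peri-infarct tissue, against 9.55, 8.74 and 12 CPM in contralateral tissue (log2 fold change 1.66 ± 0.16, adjusted p = 2e-05), and Hif1a, the hypoxia-inducible transcription factor, rose at 0.69 ± 0.12. Vegfa (-0.15 ± 0.10) and Ldha (0.14 ± 0.10), only some of its many targets, were not called (adjusted p = 0.34 and 0.37). Slc2a3, the neuronal glucose transporter, fell at -0.30 ± 0.09 (adjusted p = 0.036), and its adjusted p was over 0.05 without peri-infarct replicate 1 or 3 or contralateral replicate 2 or 3, with a highest value of 0.09. Of 18 nuclear-encoded respiratory chain genes edgeR and limma-voom called none (median -0.12, and -0.20 without peri-infarct replicate 3). Of these 3 reached an unadjusted p under 0.05. DESeq2 gave 4 falls and log2(TPM + 1) gave 6.

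Myelin genes gave 1 call among 19 and a median log2 fold change of 0.03. Without peri-infarct replicate 1, 2 rose and the median was 0.18, and without peri-infarct replicate 2, 2 fell and it was -0.17. Mbp, the basic protein of myelin, was at 2679, 4879 and 4141 CPM in peri-infarct and 3656, 3395 and 3561 CPM in contralateral tissue, which overlap (adjusted p = 0.67). The one that rose was Klk6, a secreted protease, at 9.28, 13.6 and 16.6 CPM in peri-infarct tissue, against 6.97, 4.91 and 7.16 CPM in contralateral tissue (log2 fold change 1.05 ± 0.23, adjusted p = 0.0062). Of 17 genes of precursors and early differentiation 5 rose and none fell (median 0.41, and 0.25 without peri-infarct replicate 3), and 9 rose without peri-infarct replicate 1. Enpp6, a marker of newly forming oligodendrocytes, was at 22.8, 36.0 and 42.7 CPM in peri-infarct tissue, against 15.5, 16.4 and 17.8 CPM in contralateral tissue (log2 fold change 1.03 ± 0.22, adjusted p = 0.007). The precursor receptor Pdgfra (-0.03 ± 0.10, adjusted p = 0.85), also carried by fibroblasts, was not called.

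Vessel genes gave counts of rises near the 14.7% of all genes tested. Of 23 endothelial genes 3 rose and none fell (median log2 fold change 0.27, and 0.057 without peri-infarct replicate 3), and none was called without peri-infarct replicate 3, 1 without contralateral replicate 2 or 3, and 6 with the replicate block. Icam1, an adhesion molecule for leukocytes, was at 13.7, 22.2 and 26.0 CPM in peri-infarct tissue, against 5.32, 11.4 and 11.3 CPM in contralateral tissue (log2 fold change 1.14 ± 0.28, adjusted p = 0.013), and its adjusted p was over 0.05 without peri-infarct replicate 3, with a highest value of 0.062. Cldn5, the main claudin of the barrier, was at 0.45 ± 0.18 (adjusted p = 0.11). Of 14 genes of pericytes and smooth muscle 3 rose and none fell (median 0.34). The median was 0.090 without peri-infarct replicate 1, 0.17 without peri-infarct replicate 3 and 0.16 without contralateral replicate 2. Anpep, an aminopeptidase that myeloid cells also carry, rose at 2.30 ± 0.44, and Rgs5, a regulator of G proteins in pericytes, at 0.39 ± 0.12 (adjusted p = 0.036), a value over 0.05 without peri-infarct replicate 3 or contralateral replicate 1 or 2 or 3, with a highest value of 0.25, and with a log2 fold change of 0.16 without peri-infarct replicate 3.

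Of 25 genes of iron, heme and oxidative stress 11 rose and none fell (median log2 fold change 0.37), led by the phagocyte NADPH oxidase. Its catalytic subunit Cybb was at 42.9, 19.8 and 42.1 CPM in peri-infarct tissue, against 4.74, 2.87 and 7.33 CPM in contralateral tissue (log2 fold change 2.81 ± 0.45, adjusted p = 0.0015), and its partner subunits Cyba (1.97 ± 0.17), Ncf1 (1.77 ± 0.13) and Ncf4 (1.68 ± 0.19, log2 fold changes) rose with it. Ftl1, the light chain of the iron store ferritin, was at 1299, 753 and 952 CPM in peri-infarct tissue, against 282, 249 and 451 CPM in contralateral tissue (log2 fold change 1.61 ± 0.24, adjusted p = 0.00073), whereas the heavy chain Fth1 was not called (0.18 ± 0.08, adjusted p = 0.15). Hmox1, which degrades heme, was at 139, 57.6 and 71.8 CPM in peri-infarct and 9.55, 10.7 and 63.8 CPM in contralateral tissue. The groups overlap, with contralateral replicate 3 at the level of the peri-infarct libraries, and the log2 fold change of 1.68 ± 0.66 did not pass (adjusted p = 0.11). Without that library it was 3.1 and passed (adjusted p = 0.0015). Tfrc, the transferrin receptor, was not called (-0.29 ± 0.18, adjusted p = 0.3), but was called lower with the replicate block (adjusted p = 0.048).

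Markers of other cell types and regions gave few calls. Of 12 neutrophil genes 6 passed the filter and 2 rose. They were Mmp8 (3.76 ± 0.45) and Csf3r (1.22 ± 0.15), while Elane had 1 count in 1 peri-infarct library and 0 in all others. The neutrophil genes did not move together. Of the 6 tested, 3 had a log2 fold change above 0, the median was -0.00013 and the lowest was -0.93. Summed over the tested neutrophil genes the level was 37.5 to 49.4 CPM in peri-infarct and 18.2 to 20.5 CPM in contralateral libraries. Of 18 T and NK cell genes 3 were tested and edgeR called none, with 1, Ccl5, at an unadjusted p under 0.05 and called by DESeq2. Cd3e had 2, 0 and 4 counts in peri-infarct libraries and 0 in all contralateral ones. Of 7 B and plasma cell genes 2 were tested, and Cd79b rose at 1.18 ± 0.34 (adjusted p = 0.031). That call was lost without any 1 of the 6 libraries, with a highest adjusted p of 0.1, and with the replicate block (adjusted p = 0.07). Of 4 tested erythrocyte genes, 12 choroid plexus genes, 13 ependymal genes, 14 striatal genes and 14 heat shock genes edgeR called none. None of these reached an unadjusted p under 0.05 or a call by DESeq2 or limma-voom, except among heat shock genes, where 3 reached that p and DESeq2 called 1. Choroid plexus genes were high in contralateral replicate 2. Ttr, the transport protein made there, was at 54.5, 24.9 and 14.3 CPM in peri-infarct and 2.52, 229 and 9.04 CPM in contralateral tissue, and the list's median of -0.76 became 0.57 without that library, -1.43 without peri-infarct replicate 1 and -1.17 without contralateral replicate 3. Striatal genes were high in peri-infarct replicate 2, where Drd2, the dopamine receptor of striatal neurons, reached the most of 3.80, 27.3 and 1.23 CPM in peri-infarct tissue, against 6.0, 13.6 and 9.80 CPM in contralateral tissue. Of 13 hippocampal and thalamic genes Prkcd rose (1.46 ± 0.29, adjusted p = 0.0046), a kinase of thalamic neurons that myeloid cells also express. The part of these regional differences in the results above was not tested beyond leaving out each library.

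The same comparison in knockout mice used the knockout libraries and gave 2032 rises, or 13.5% of genes tested, and 1049 falls, or 6.96%. Of the wild-type rises 1645 were also called in the knockout, 74.2% of the wild-type and 81.0% of the knockout rises. Of the wild-type falls 374 were shared, 60.3% of the wild-type and 35.7% of the knockout falls, and no gene was called in opposite directions. The difference of the responses itself was called for no gene by edgeR, for none by limma-voom and for 3 by DESeq2. By edgeR 517 of the 15075 genes tested had an unadjusted p under 0.05, and the smallest adjusted p was 0.99999. That is fewer genes than this threshold would pass with no difference at all. The log2 fold change of Lpl was 2.67 ± 0.23 in wild-type and 1.03 ± 0.22 in knockout tissue, the most unequal of the named microglial genes, with an unadjusted p of 0.00025 for the difference that did not pass adjustment. Spp1 was at 3.50 ± 0.53 in wild-type and 4.64 ± 0.56 in knockout tissue (unadjusted p = 0.13). Tyrobp was at 2.10 ± 0.17 in wild-type and 2.09 ± 0.18 in knockout tissue. C1qa was at 2.20 ± 0.16 in wild-type and 2.18 ± 0.16 in knockout tissue, and Ctsd at 2.60 ± 0.22 in wild-type and 2.47 ± 0.22 in knockout tissue. Klk6 was at 1.05 ± 0.23 in wild-type and 2.12 ± 0.23 in knockout tissue (unadjusted p = 0.0057). Disease-associated microglial genes rose in 24 of 25 cases in wild-type and in 24 in knockout tissue, with medians of 2.13 and 1.93. Myelin genes rose in 1 of 19 cases in wild-type and in 7 in knockout tissue, with medians of 0.03 and 0.51, a difference that was not called for any member.

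**Figure D5:**
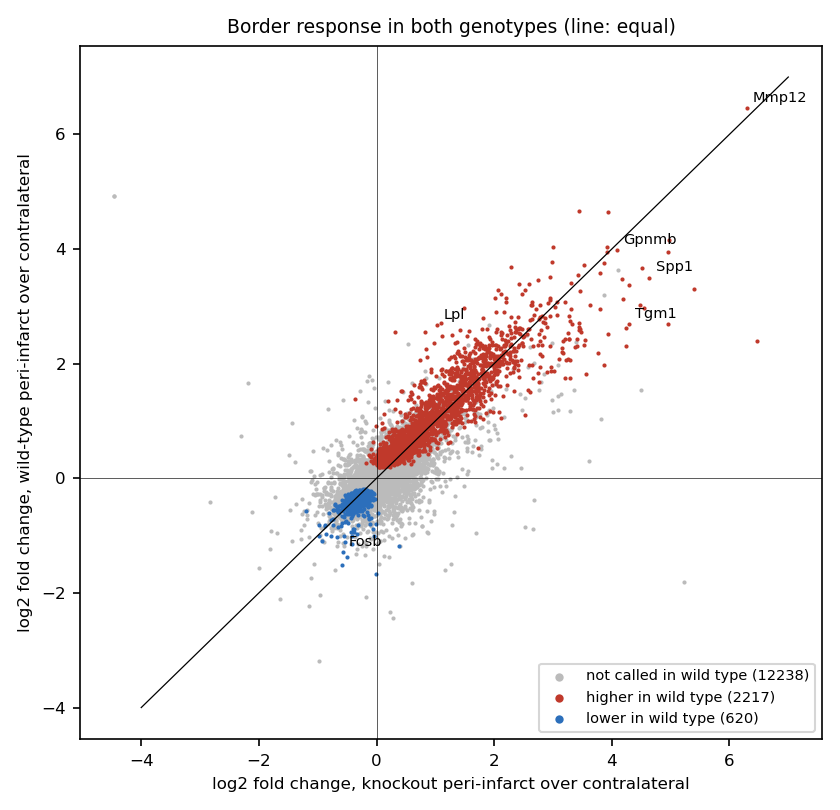
Each point is a gene, with its log2 fold change in knockout tissue on the x axis and in wild-type tissue on the y axis, peri-infarct over contralateral in both, and a line where they are equal. Most wild-type rises (red) and falls (blue) lie on the same side of 0 in the knockout, and Lpl lies above the line at 2.67 in wild type.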

How the data were processed

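Polyadenylated RNA from 18 mouse brain samples was sequenced with 3 libraries per group, and 6 wild-type libraries are compared here. The authors deposited expected counts, which are estimates, and TPM, which correct for transcript length, in a table each with 18922 genes. A value that was not whole occurred in 3678 genes (19.4%), so the estimated counts deposited were rounded, although the tests had been laid out for whole counts. The deposited TPM served for levels and as an alternative. Per the submitters' processing notes the build was GRCm39 (mm39), and the tools listed, with no role given, were Subread, Bowtie2 and HISAT2 2.0.4. Such estimates may divide reads among near-identical genes. How strand was used is not stated.

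Counts of 12 libraries (both genotypes, peri-infarct and contralateral, no infarct core) were fitted with edgeR 4.0.16 in R 4.3.3 (filterByExpr, TMM, robust quasi-likelihood, 4 group means, 8 residual degrees of freedom). Each SE was derived from the F statistic, as the size of the log2 fold change over the root of F. Calls use a Benjamini-Hochberg adjusted p under 0.05 over 15075 tested genes. The depth of 17101967 to 17691795 counts per library limits genes of few counts, and a permutation of 3 against 3 libraries could not give a 2-sided p under 0.1. Scores use log2 CPM with a prior count of 2. Same-numbered wild-type peri-infarct and contralateral libraries deviated together from their group means (correlations of 0.41, 0.449 and 0.399), a pairing taken from the values and not stated in any label, and knockout ones did not (0.0205, 0.0372 and -0.103). Same-numbered contralateral libraries of wild-type and knockout mice, which cannot share an animal, had correlations of 0.331, 0.369 and -0.135. The values therefore do not settle whether a replicate number marks an animal. Alternatives were other size factors and filters, DESeq2 1.42.0, limma-voom and limma-trend (limma 3.58.1) on log2(TPM + 1) and log2(TPM + 0.1), other sets of libraries, the replicate number as a block, and leaving out each library. Tests were checked on simulated counts.

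Genes named are Trem2, the 10 largest rises and 10 largest falls among called genes whose log2 CPM averaged 1 or more over the 6 wild-type libraries, a proper symbol and no overlap of libraries, for each list the 3 members of smallest p, other list members where their role completes the account, and defining markers of other cell types. Some of these are not reported here. The comparison, its lists and the rule were chosen with earlier results of these data known. Of 864 listed symbols 13 had no row and 41 fell below the filter. Promoter sequences come from RefSeq's table for GRCm38.p6, matched by symbol.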

Additional observations from a re-analysis of the deposited data

Results flagged for a closer look

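Only genes chosen for the text were searched for opposite orders in the genotypes, and the share over all genes tested was not counted. Ldha, a glycolytic enzyme, was higher in all 3 wild-type peri-infarct libraries than in the wild-type contralateral ones and lower in all 3 knockout peri-infarct libraries than in the knockout contralateral ones. Its log2 fold change was 0.14 ± 0.10 in wild-type and -0.24 ± 0.10 in knockout tissue, called in neither genotype. The difference between the responses was 0.38, with an unadjusted p of 0.019 in edgeR's quasi-likelihood test that did not pass adjustment over all genes tested (adjusted p = 1.0).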

How the results depend on the processing

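Wild-type tissue gave 2217 rises and 620 falls. The count of rises stayed within 1.5 times of this except at an adjusted p under 0.01 (1458) and with all 18 libraries (501). With all 18 libraries 500 of these rises were among the 2217. The 6 wild-type libraries alone gave 1559 rises. Falls numbered 940 with RLE size factors, 1262 by DESeq2, 1541 on log2(TPM + 1), 1533 on log2(TPM + 0.1), 145 at an adjusted p under 0.01, 391 with the 6 wild-type libraries alone and 1 with all 18 libraries. Leaving out 1 library gave 1548 to 2114 rises and 383 to 861 falls. With the replicate number as a block falls numbered 1107 with 12 libraries and 1429 with the 6 wild-type libraries, and 585 of the 620 falls were kept with 12. In the block fit of 6 libraries Adam8, Cd36, Cd79b, Col4a1, Cxcl10, Lcn2, Lgals3, Mki67, Msr1, Plin2, Top2a and Vwc2l lost their calls (adjusted p from 0.0513 for Msr1 to 0.16 for Cd36), and Mrc1 and Pvalb gained one (adjusted p = 0.034 and 0.0061). In knockout tissue rises numbered 1271 at an adjusted p under 0.01 and 678 with all 18 libraries. Knockout falls numbered 672 with upper quartile factors, 236 at an adjusted p under 0.01 and 8 with all 18 libraries, and ranged from 367 to 1113 with 1 library left out. The block moved them to 1543. DESeq2 called 3 genes for the difference of the responses. With all libraries except wild-type infarct core replicate 3 the wild-type counts were 2192 rises and 824 falls, so the low counts with all 18 did not hold without that library. No other infarct core library was left out in turn. The causes of the moves were not tested. Of 2390 counts of list members under an alternative 253 moved by more than 1.5 times. Mbp, not called, had a log2 fold change of -0.071 to 0.32 with 1 library left out, below 0 without peri-infarct replicate 2. Mmp9, not called, had one of -0.079 to 0.61, below 0 without peri-infarct replicate 1. Depth limits genes of few counts, such as most T cell and neutrophil markers. The lists were tested by no set test, and 3 libraries per group and an unstated source of the replicates limit every p-value.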

Other observations

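Some list members fell below the filter on low counts and were not tested, and 4 are given here, chosen after their values were seen. Sprr1a, a gene of regenerating peripheral neurons, had 4, 2 and 4 counts in peri-infarct libraries and 2, 0 and 0 counts in contralateral ones. Il6 had 2, 2 and 1 counts in peri-infarct libraries and 1, 2 and 1 counts in contralateral ones. Cxcl2, a chemokine for neutrophils, had 1, 4 and 0 counts in peri-infarct libraries and 0, 1 and 2 counts in contralateral ones. Cd5, a lymphocyte receptor, had 18, 10 and 6 counts in peri-infarct libraries and 2, 1 and 1 counts in contralateral ones.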
